A study of Mus musculus with 10 samples.

Results

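DNA transposons are the cut-and-paste class of transposable elements (TE), and their RNA was followed here in round spermatids of mice after a short warming of the testis. The members are all rows of the deposited table that carry the type TE and the class DNA, each of which is 1 subfamily and sums reads over its genomic copies. They number 197 of 1146 TE subfamilies and of 56547 rows in all, and the 21 subfamilies whose class is written with a question mark were not included. By family they comprise 73 hAT-Charlie subfamilies, 44 TcMar-Tigger subfamilies and 80 of other families, the largest of which is hAT-Tip100 with 31. Adult male CD1 mice, an outbred stock, lay under isoflurane with the testes against water at 42 °C or at 33 °C for 30 minutes. They woke from anaesthesia and were then killed, and round spermatids, the haploid cells that follow meiosis, were isolated. Each temperature had 5 mice with 1 library each, made from total RNA after removal of ribosomal RNA, and all 10 mice shared the anaesthesia and the bath. The labels name no further allele, agent or pooling.

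A complete DNA transposon encodes a transposase that cuts the element out at its inverted terminal repeats and inserts it elsewhere. Most subfamilies are short derivatives that have lost the transposase gene and depended on the enzyme of a longer relative. Charlie elements belong to the hAT superfamily, and Tigger elements belong to the Tc1/mariner superfamily and are related to pogo of Drosophila. DNA transposons are not known to move in present-day mice, unlike LINE1 and some endogenous retroviruses. Their copies lie as fossils between and inside genes, so that reads assigned to them can come from the introns or untranslated parts of host transcripts. Copy numbers and lengths are not in the table, so a subfamily's count is not a level per copy, and subfamilies are ranked by counts alone.

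Library totals were 60623568 to 102086073 counts at 42 °C and 92311183 to 117723075 at 33 °C, and DNA transposons took 171395 to 370718 counts of each. One library stood apart: 42 °C replicate 2 had the lowest total and 16.2% of its counts on TE, against 4.62% to 9.07% in the other 9 libraries. It also had the most counts on olfactory receptor genes, at 323 CPM (counts scaled to the TMM-adjusted library size), and on sense-intronic transcripts, at 0.0422% of counts. At 42 °C the 4 other libraries had at most 192 CPM and 0.0298%, and the highest at 33 °C were 185 CPM and 0.0263%. The part of these in the results below was not tested. All 8 round spermatid markers on the list (Acrv1, Prm1, Prm2, Tnp1, Tnp2, Spaca1, Tssk2 and Catsper3) were present, with a summed level of 1570 to 4970 CPM at 42 °C and 1340 to 3450 CPM at 33 °C. The 4 spermatocyte markers summed to 86.0 to 146 CPM at 42 °C, against 119 to 185 CPM at 33 °C, and the 4 spermatogonial ones to 14.8 to 17.4 CPM and 11 to 16.5 CPM. The 4 Leydig cell markers reached 5.50 CPM at 42 °C and 14.5 CPM at 33 °C. The lists for Sertoli, peritubular and stromal, leukocyte and endothelial cells summed to at most 7.03 CPM at 42 °C and 8.87 CPM at 33 °C in any library. The 2 erythroid markers were near 0, at up to 0.0784 CPM at 42 °C and 0.0812 CPM at 33 °C. In such bulk samples fewer cells of a type and less RNA per cell cannot be told apart.

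DNA transposons as a class did not separate the temperatures. They took 0.228%, 0.612%, 0.213%, 0.260% and 0.270% of the counts in 42 °C replicates 1 to 5, and 0.280%, 0.171%, 0.346%, 0.305% and 0.180% in 33 °C replicates 1 to 5. The groups overlapped, and apart from 42 °C replicate 2 every library at 42 °C lay inside the range at 33 °C. The mean was 0.316 ± 0.167% at 42 °C and 0.256 ± 0.0778% at 33 °C (n = 5 each, with the SD), so that the means lay closer than the SD at 42 °C. Without 42 °C replicate 2 the mean at 42 °C was 0.243 ± 0.0267% (n = 4), which is under the mean at 33 °C.

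Within the TE counts the class held an almost fixed place. Its share of all TE counts was 3.81%, 3.78%, 3.68%, 3.56% and 3.69% in 42 °C replicates 1 to 5, and 3.68%, 3.69%, 3.82%, 3.81% and 3.70% in 33 °C replicates 1 to 5. The groups overlapped, and the highest library was 1.07 times the lowest. The share of DNA transposons in all counts varied 3.58-fold over the same 10 libraries. LINE elements, the class that includes LINE1, took 26.2% to 32% of TE counts at 42 °C and 25.3% to 30.7% at 33 °C. SINE elements took 35.4% to 37.5% and 32.4% to 36.7%. LTR elements took 26.84% to 28.05% at 42 °C and 26.42% to 27.77% at 33 °C, so a steady share was not particular to DNA transposons.

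**Figure D1:**
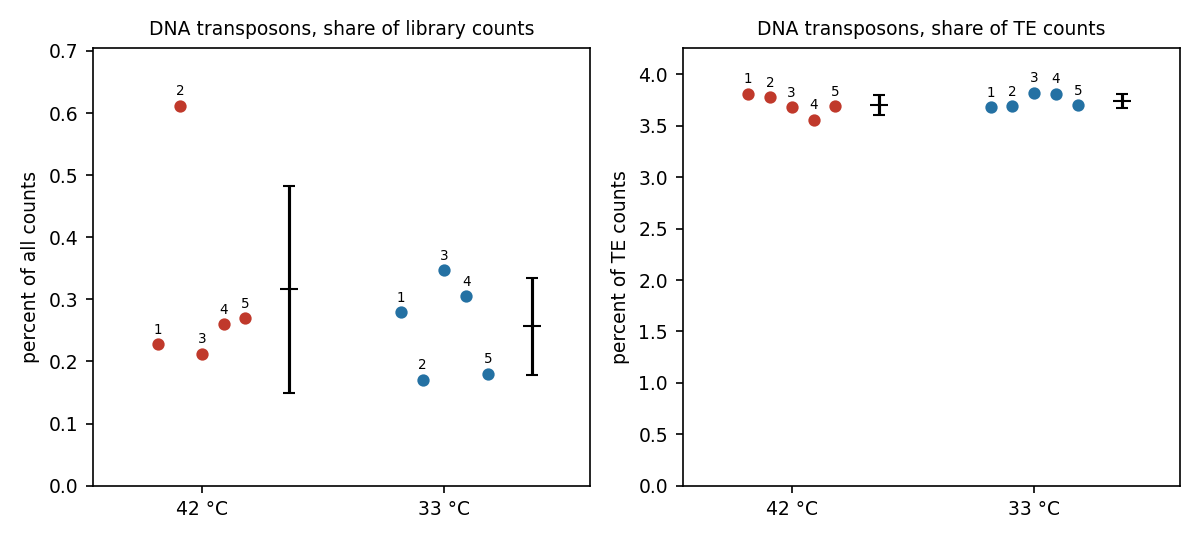
Left, the percent of all counts on DNA transposons in each library; right, the percent of TE counts on DNA transposons. Points are libraries with their replicate number, and the bar beside them is the mean with the SD (n = 5 per group). 42 °C replicate 2 stands at 0.612% of all counts on the left, and on the right all 10 libraries lie between 3.56% and 3.82%.

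The families kept similar shares of the class in all libraries. hAT-Charlie took 64.0% to 65.8% of the DNA transposon counts at 42 °C and 63.7% to 66.0% at 33 °C. TcMar-Tigger took 20.6% to 22.2% at 42 °C and 20.9% to 22.5% at 33 °C, and hAT-Tip100 took 6.28% to 7.37% and 6.04% to 7.46%. All other families together took at most 6.96% in any library. URR1A and URR1B, a pair of rodent hAT-Charlie elements without a transposase gene, alone took 19.4% to 22.5% at 42 °C and 18.7% to 22.2% at 33 °C. The groups overlapped in each of these shares.

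No DNA transposon subfamily rose or fell at 42 °C by the test. Of the 197, 187 had enough counts for edgeR's quasi-likelihood test. With p adjusted over all 26025 features tested, 0 were higher and 0 were lower at a threshold of 0.05. Over all features 0.0884% were called higher and 0.00384% were called lower. An unadjusted p under 0.05 was reached by 6 higher and 0 lower, against 8.56% higher and 2.94% lower over all features. In 0 of the 187 did all libraries at 42 °C lie above all at 33 °C, and in 0 did all lie below. Over all features those shares were 1.32% and 0.680%. DESeq2 and limma voom also called 0 in either direction, with smallest adjusted p of 0.154 (DESeq2) and 0.0641 (limma voom). The share of all features that these 2 called at the adjusted threshold is not given here. DESeq2 put 7 higher and 0 lower at the unadjusted threshold, against 10.2% and 2.70% of all features. With limma voom, 2 subfamilies were above 0 and 5 below 0 at an unadjusted p under 0.05, and over all features 12.6% and 6.61% were. Without 42 °C replicate 2 limma voom gave 1 above 0 and 14 below 0, against 12.1% and 7.58% of all features.

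The estimates leaned one way and turned with a single library. Of the 187 tested subfamilies 175 had a log2 ratio of 42 °C over 33 °C above 0 and 12 below, with a median of 0.26, against a median of -0.01 and 48.9% above 0 over all features. The medians of the other TE classes in the same fit were 0.29 for LINE, 0.27 for LTR and 0.27 for SINE. By family the median was 0.25 for 70 tested hAT-Charlie subfamilies, 0.27 for 41 TcMar-Tigger subfamilies and 0.27 for 76 of other families. Without 42 °C replicate 2 the median was -0.06, with 55 subfamilies above 0 and 132 below, and over all features it was -0.01. The medians were then -0.06 for hAT-Charlie, -0.08 for TcMar-Tigger and -0.05 for the other families. In that fit an unadjusted p under 0.05 was reached by 3 above 0 and 1 below 0, and by 7.46% and 2.81% of all features.

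**Figure D2:**
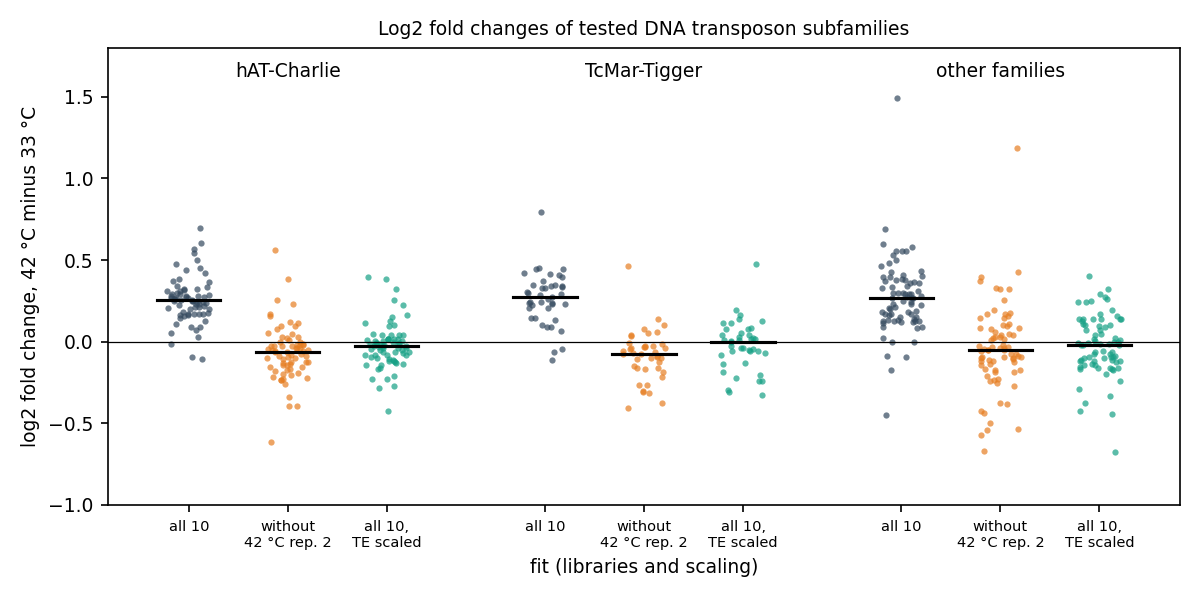
Each point is the log2 ratio (42 °C minus 33 °C, vertical axis) of 1 tested subfamily in 3 fits, by family group, and the black line is the median. In the fit with all 10 libraries the medians lie at 0.25 to 0.27, and they lie at or below 0 without 42 °C replicate 2. They also lie at or below 0 when the libraries are scaled on TE counts (TE scaled). That scaling by itself centres TE rows near 0, with a median of -0.01 over all tested TE rows.

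Subfamilies varied together from library to library, across the families and with the other TE. The highest of the 10 libraries was 42 °C replicate 2 for 183 of the 187, and the lowest was 33 °C replicate 2 or 5 for 163. The median deviation of the tested DNA subfamilies from their 33 °C mean, on the scale of log2(CPM + 0.5), was -0.15, 1.08, -0.21, 0.07 and 0.09 in 42 °C replicates 1 to 5. It was 0.18, -0.45, 0.37, 0.27 and -0.38 in 33 °C replicates 1 to 5. The SD of these values was 0.522 at 42 °C and 0.382 at 33 °C over all 5 libraries of each group. Among the 4 libraries at 42 °C other than replicate 2 it was 0.1525. The median deviation of genes stayed between -0.04 and 0.02 in all 10 libraries. Genes were 24948 of the 26025 tested rows used for scaling, which holds their median near 0.

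**Figure D3:**
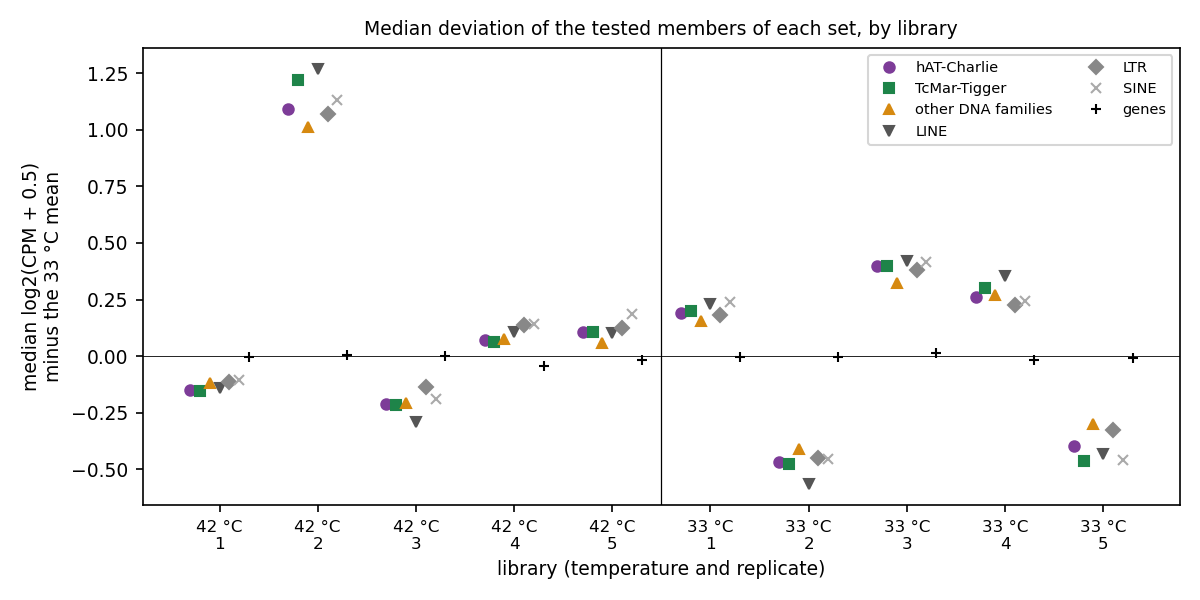
The median deviation of each set's tested members from their 33 °C mean, in log2(CPM + 0.5) (vertical axis), in each library (horizontal axis). The 3 groups of DNA transposon families, LINE, LTR and SINE elements vary together and reach 1.01 to 1.27 in 42 °C replicate 2. Genes, which are most of the rows used for scaling and are held near 0 by it, stay between -0.04 and 0.02.

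The subfamilies with most counts showed the common pattern, with 1 exception. URR1B had 257, 616, 216, 289 and 295 CPM at 42 °C and 308, 180, 355, 346 and 192 CPM at 33 °C. All libraries at 42 °C other than replicate 2 lay within the range at 33 °C. Its fold was 1.21 with a 95% interval of 0.784 to 1.87, and the edgeR adjusted p was 0.668. Without 42 °C replicate 2 its log2 ratio was -0.03, against 0.28 with all libraries. URR1A had 234, 622, 201, 270 and 279 CPM at 42 °C and 300, 167, 348, 323 and 169 CPM at 33 °C, again with replicate 2 above all others. RMER30, also a rodent element of hAT-Charlie, averaged 52.4 ± 27.1 CPM at 42 °C and 43.3 ± 13.7 CPM at 33 °C (n = 5 each, with the SD). These 3 rodent subfamilies had log2 ratios of 0.27 to 0.30, close to the median of the class.

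Older elements shared by placental mammals did the same. MER20, a hAT-Charlie element known for carrying regulatory sites in the endometrium of placental mammals, had 80.6, 208, 77.5, 99.5 and 101 CPM at 42 °C. At 33 °C it had 107, 65.0, 123, 106 and 66.6 CPM, and the groups overlapped. MER2, a short TcMar-Tigger element, averaged 169 ± 86.0 CPM at 42 °C and 137 ± 39.5 CPM at 33 °C. MER5A, a short hAT-Charlie element, averaged 136 ± 63.3 CPM at 42 °C and 115 ± 32.5 CPM at 33 °C. The log2 ratios were 0.25 for MER5A, 0.26 for its relative MER5B, 0.23 for MER3, 0.21 for Charlie1, 0.28 for MER20 and 0.30 for MER2, with edgeR adjusted p from 0.649 to 0.757. In the smaller families the members of most counts had lower or similar values, apart from Kanga1 of TcMar-Tc2, which is described below. MER63D of hAT-Blackjack had a log2 ratio of 0.20, MER53 of hAT 0.18, FordPrefect of hAT-Tip100 0.18, MMAR1 of TcMar-Mariner 0.17, MER121 of TcMar 0.13 and MER105, of no assigned superfamily, 0.28. The members of smallest p in hAT-Blackjack, TcMar and TcMar-Mariner, MER63B, DNA1_Mam and MADE2, had 0.39, 0.38 and 0.43 (edgeR adjusted p from 0.582 to 0.618). Without 42 °C replicate 2 these were 0.093, 0.075 and 0.040.

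MER58C did not follow the other subfamilies. This hAT-Charlie element had 161, 102, 139, 125 and 129 CPM at 42 °C and 130, 147, 124, 151 and 155 CPM at 33 °C. It was lowest in 42 °C replicate 2, where 183 subfamilies were highest. Its share of the DNA transposon counts was 7.00%, 1.86%, 6.44%, 4.73% and 4.83% at 42 °C and 4.55%, 8.08%, 3.76%, 5.01% and 8.02% at 33 °C. Its log2 ratio was -0.11 (edgeR adjusted p = 0.707, SE 0.13), and it was -0.0022 without 42 °C replicate 2 and -0.19 without 42 °C replicate 1.

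Tigger17 and Tigger1 also departed from the class. Tigger17 had 13.5, 12.8, 14.2, 12.7 and 13.4 CPM at 42 °C and 14.3, 15.3, 14.1, 14.7 and 13.7 CPM at 33 °C, so that it varied little between libraries. Its log2 ratio was -0.11 (edgeR adjusted p = 0.628, SE 0.10), and -0.070 without 42 °C replicate 2. Tigger1 had 82.4, 114, 82.9, 32.8 and 37.6 CPM at 42 °C and 40.7, 59.6, 72.6, 66.4 and 93.7 CPM at 33 °C. The highest libraries were 42 °C replicates 1, 2 and 3 and 33 °C replicate 5, and its log2 ratio was 0.07 (edgeR adjusted p = 0.933, SE 0.32). It was below 0 when 42 °C replicate 1, 2 or 3 or 33 °C replicate 1 was left out. Of 157 tested subfamilies with a mean of at least 1 CPM, these 3 were the ones whose share of the DNA transposon counts varied more than 3-fold between libraries. For 91 the share varied by less than 1.5-fold. MER3 varied least of all 187 tested, between 1.91% and 2.05%.

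**Figure D4:**
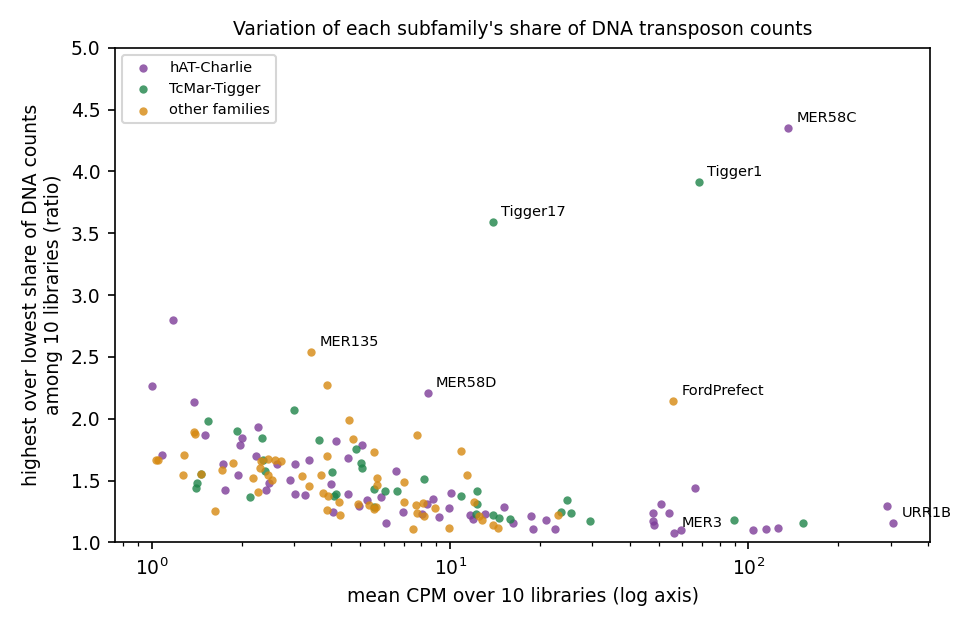
For each of 157 tested subfamilies with a mean of at least 1 CPM, the highest over the lowest share of DNA transposon counts among 10 libraries (vertical axis) is set against mean CPM (log axis). MER58C, Tigger1 and Tigger17 lie above a ratio of 3, apart from all others.

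The 5 subfamilies of smallest p above 0 were low or middling in counts, and none passed the adjusted test. MamRep1894, a hAT element, had 17, 21, 12, 11 and 9 counts at 42 °C and 4, 3, 10, 4 and 6 counts at 33 °C. The groups overlapped in 33 °C replicate 3 alone. The log2 ratio was 1.49 (edgeR adjusted p = 0.348, SE 0.44), and it was 1.18 without 42 °C replicate 2. MamRep1894 met the filter, of about 10 counts in 5 libraries, mostly through libraries at 42 °C, where it was higher. Its ratio and p are therefore no support for a difference. MER58D, a hAT-Charlie element, had 6.76, 12.4, 9.08, 12.0 and 10.5 CPM at 42 °C and 7.67, 3.75, 7.66, 6.59 and 7.73 CPM at 33 °C. In 4 of 5 libraries at 42 °C it exceeded all at 33 °C, at a log2 ratio of 0.60 (edgeR adjusted p = 0.386, SE 0.22), and 0.56 without 42 °C replicate 2.

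Kanga1, of the Tc2 branch of Tc1/mariner, had 6.96, 14, 6.89, 10.2 and 8.12 CPM at 42 °C and 6.03, 4.87, 6.96, 6.23 and 7.30 CPM at 33 °C. Its groups overlapped, and its log2 ratio was 0.56 (edgeR adjusted p = 0.386, SE 0.21), and 0.39 without 42 °C replicate 2. Tigger8 averaged 2.44 ± 1.31 CPM at 42 °C, against 1.41 ± 0.321 CPM at 33 °C, and MER135 averaged 4.08 ± 1.30 CPM at 42 °C and 2.78 ± 0.703 CPM at 33 °C (n = 5 each, with the SD). The log2 ratios were 0.79 and 0.55 (edgeR adjusted p = 0.405 and 0.430), and 0.46 and 0.43 without 42 °C replicate 2. On the other side, UCON23, a hAT element, had 16, 24, 24, 12 and 16 counts at 42 °C and 31, 27, 38, 29 and 13 counts at 33 °C. In CPM the groups overlapped, and the log2 ratio was -0.45 (edgeR adjusted p = 0.573, SE 0.34), and -0.67 without 42 °C replicate 2. MER96 and ORSL-2a of hAT-Tip100 had -0.18 and -0.09 (edgeR adjusted p = 0.841 and 0.907), and -0.53 and -0.43 without 42 °C replicate 2.

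Set against the other TE, no DNA subfamily passed the adjusted test, and groups without overlap were rare, as they were among all TE. The counts were also fitted on TE rows alone, with the library size and TMM scaling taken from TE counts. Over the TE rows 0.186% were called higher and 0% lower at an adjusted p of 0.05, and 0 DNA subfamilies were called in either direction. At an unadjusted p under 0.05 there were 5 higher and 17 lower of 186 DNA subfamilies, against 5.02% higher and 4.84% lower of all TE rows. Without 42 °C replicate 2 there were 4 higher and 23 lower in that fit, and over all TE rows 4.64% and 6.87%. In CPM of TE counts, that is with the TE counts of a library as its total, 3 DNA subfamilies had all libraries at 42 °C above all at 33 °C and 3 had all below. The shares over all 1077 tested TE were 1.11% and 0.650%. With counts this small, no result about the class is read from the 3 and 3 of 187.

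Zaphod2, a hAT-Tip100 element, had 84.7, 83.9, 78.6, 86.5 and 82.7 CPM of TE counts at 42 °C and 64.2, 61.4, 64.4, 69.9 and 67.6 at 33 °C. The groups did not overlap, and 42 °C replicate 2 stood among its group. On the TE scale its log2 ratio was 0.32 (edgeR adjusted p = 0.0743, SE 0.06), and 0.33 without 42 °C replicate 2 (edgeR adjusted p = 0.0808). In CPM it had a log2 ratio of 0.60 with all libraries (edgeR adjusted p = 0.435) and of 0.32 without 42 °C replicate 2 (edgeR adjusted p = 0.579). ORSL-2a, of the same family, had 41.5, 40.7, 34.9, 34.3 and 33.4 CPM of TE counts at 42 °C and 48.6, 46.1, 45.2, 52.9 and 43.0 at 33 °C. The groups did not overlap either, and the log2 ratio on the TE scale was -0.37 (edgeR adjusted p = 0.114, SE 0.09), and -0.40 without 42 °C replicate 2 (edgeR adjusted p = 0.113).

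The 4 others without overlap on the TE scale were MamRep1894, MamRep38, Charlie5 and Tigger17c, the last 3 of which were picked out after their values were seen. MamRep38, a hAT element, averaged 38.1 ± 3.76 CPM of TE counts at 42 °C and 28.5 ± 2.73 at 33 °C (edgeR adjusted p = 0.114, and 0.150 without 42 °C replicate 2). Charlie5 averaged 288 ± 9.75 at 42 °C and 307 ± 2.63 at 33 °C, and Tigger17c averaged 187 ± 4.80 and 202 ± 4.69 (edgeR adjusted p = 0.434 and 0.417). MamRep1894 had 1.31 to 2.82 at 42 °C and 0.540 to 1.30 at 33 °C, so that its groups all but touched. It had too few counts for the test on TE rows.

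**Figure D5:**
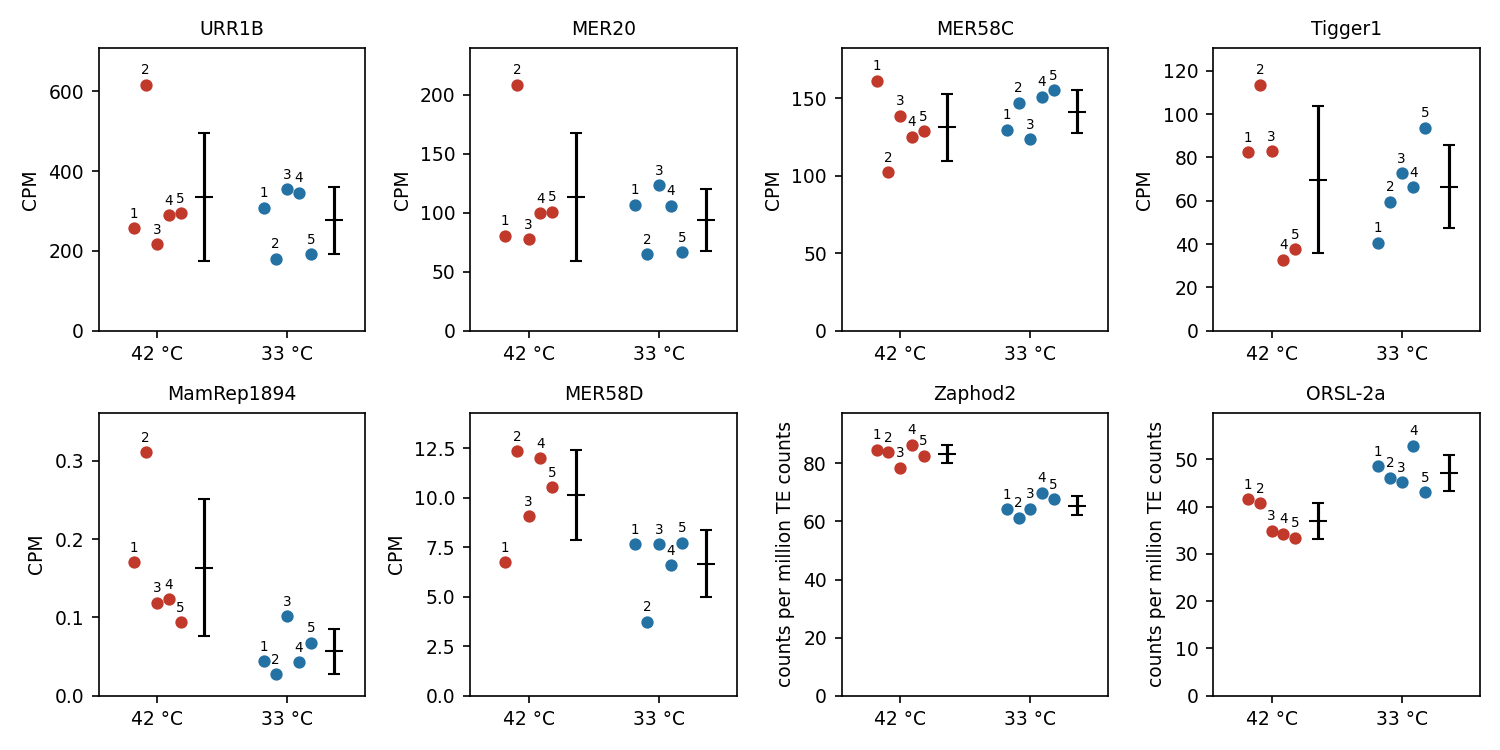
CPM of 6 subfamilies, and for Zaphod2 and ORSL-2a CPM of TE counts (vertical axes, from 0), in each library by temperature. Points carry the replicate number, and the bar is the mean with the SD (n = 5 per group). URR1B and MER20 are highest in 42 °C replicate 2, MER58C is lowest there, and the groups of Zaphod2 and ORSL-2a do not overlap.

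The 10 subfamilies without enough counts to be tested had at most 89 counts over all libraries. They were Charlie1b_Mars, Cheshire_Mars and Cheshire_Mars_ of hAT-Charlie, MARINER1_EC, MER47C and Tigger1a_Mars of TcMar-Tigger, MER136, MamRep1161 of TcMar, and Ricksha_a and Ricksha_b of MULE-MuDR. Of these, 3 had 0 counts in all 10 libraries, namely Cheshire_Mars, MARINER1_EC and Tigger1a_Mars.

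Mouse genes that descend from DNA transposases were read beside the elements, and none passed the test. Hosts have repeatedly taken over transposase genes, among them Rag1, the recombinase of antigen receptor genes. Of 29 such genes listed, 28 were matched by symbol and 26 were tested, of which 0 were called (edgeR adjusted p), 5 had a log2 ratio above 0 and 21 below, with a median of -0.15. Over all features 48.9% were above 0, and only 0.0884% were called higher and 0.00384% lower. An unadjusted p under 0.05 was reached by 1 higher, Tigd5, and 1 lower, Harbi1, against 8.56% and 2.94% of all features. Tigd5, from a pogo-like transposase (chromosome 15, 75909735 to 75914535, GRCm38), had 10.8, 15.6, 12.0, 15.2 and 11.7 CPM at 42 °C and 8.78, 7.59, 10.1, 10.6 and 11.1 CPM at 33 °C. The groups overlapped, with a log2 ratio of 0.44 (edgeR adjusted p = 0.386, SE 0.15). Harbi1, from a Harbinger transposase (chromosome 2, 91710852 to 91721545), averaged 7.27 ± 1.10 CPM at 42 °C, against 9.31 ± 1.49 CPM at 33 °C, for a log2 ratio of -0.36 (edgeR adjusted p = 0.431, SE 0.16).

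Among the other transposase-derived genes, picked out after their values were seen, Rag1 varied most between libraries. It had 10.6, 19.2, 10.3, 0.751 and 0.848 CPM at 42 °C and 0.673, 0.597, 0.781, 0.875 and 10.2 CPM at 33 °C. Its high libraries were 42 °C replicates 1, 2 and 3 and 33 °C replicate 5, which were also the 4 highest for Tigger1. The log2 ratio was 1.67 (edgeR adjusted p = 0.496, SE 1.0). Pogz, a chromatin protein with a pogo transposase domain, had a log2 ratio of -0.17 and Jrk, of the same origin, had -0.31 (edgeR adjusted p = 0.501 and 0.459).

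Genes that restrain TE in germ cells did not pass the test either. Of 18 genes of the piRNA pathway and 12 chromatin repressors, all tested, 0 were called (edgeR adjusted p). Only 0.0884% of all features were called higher and 0.00384% lower. The log2 ratio was above 0 for 4 and below 0 for 26, with a median of -0.15, against 48.9% above 0 over all features. An unadjusted p under 0.05 was reached by 1 higher (Ehmt1) and 3 lower (Pnldc1, Exd1 and Mybl1), against 8.56% and 2.94% of all features; Pnldc1 and Mybl1 are named here only for that count, after their values were seen. Exd1, a protein of piRNA production, averaged 21.7 ± 2.32 CPM at 42 °C and 27.8 ± 4.14 CPM at 33 °C (log2 ratio -0.35, SE 0.13, edgeR adjusted p = 0.386). Ehmt1, which methylates lysine 9 of histone H3, averaged 1.26 ± 0.314 CPM at 42 °C and 0.858 ± 0.151 CPM at 33 °C (log2 ratio 0.55, SE 0.23, edgeR adjusted p = 0.410).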

How the data were processed

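What the authors deposited is 1 table of read counts, not normalized, over genes and TE subfamilies in 10 libraries. That the values are counts was read from the table, whose entries are whole numbers with differing sums. Libraries were stranded and depleted of ribosomal RNA, per the labels. GRCm38, mm10, DRAGEN, cutadapt and Trim Galore appear in the submitters' processing notes. How reads were counted, with which tool, with or without strand, and where a read aligned to several copies, is not given in the sources used here; each could change a TE count.

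Counts were tested with edgeR 4.0.16 in R 4.3.3 (quasi-likelihood test, 42 °C minus 33 °C, TMM over all rows, filterByExpr at a count of 10 in 5 libraries and a total of 15). P-values were adjusted over all tested features by Benjamini-Hochberg, with a threshold of 0.05, and measure the spread between mice. SE and 95% intervals derive from the F statistic. CPM use TMM-scaled library sizes. Sums over the class got no test. DESeq2 1.42.0 and limma 3.58.1 (voom with quality weights), other scalings and filters, a replicate block and leaving out each library were alternatives. The fit was tested on simulated counts with 200 changed features, each feature drawn on its own. They held no shift of all TE rows in 1 library, so they do not bear on the pattern of 42 °C replicate 2. No 2 libraries of a group were alike within sampling noise (chi-square per degree of freedom of 15.4 or more). The value of 15.4 was that of 42 °C replicates 1 and 3, the most alike, and all other pairs within a group had 58.9 or more.

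The members, the gene lists and the subfamilies named were chosen with earlier results of these data known. Named were the 5 subfamilies of most counts, the 5 of smallest p in each direction, in each family with 3 tested members the one of most counts and the one of smallest p, and 11 fixed ones, with 2 genes of smallest p from each list. Zbed6 was not matched. No sequence is shown, since no consensus or copy annotation was used here.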

Additional observations from a re-analysis of the deposited data

Results flagged for a closer look

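In 42 °C replicate 2 the share of counts on DNA transposons was 0.612%, with the next library of its group at 0.270%. A gap as wide for its group, by Dixon's test at a critical value of 0.71 for 5 samples, was met at the high end by 145 of 187 tested DNA subfamilies, each time in 42 °C replicate 2. Chance gives such a gap at either end in about 1 of 20 groups, and less often at the high end alone. The subfamilies share their libraries. Among the subfamilies named, 42 °C replicate 2 had 616 CPM of URR1B, 622 of URR1A, 320 of MER2, 247 of MER5A, 208 of MER20, 117 of MER5B, 111 of MER3, 100 of RMER30, 90.3 of FordPrefect and 43.8 of MER53. It had 43.1 CPM of Charlie5, 40.1 of Charlie1, 27.8 of MER63D, 27.1 of Tigger17c, 26.0 of MMAR1, 16.9 of MER63B, 12.2 of Zaphod2, 11.2 of MER121 and 9.19 of MER105. It had 6.02 CPM of MamRep38, 5.92 of ORSL-2a, 4.03 of MADE2, 1.59 of DNA1_Mam and 0.667 of MER96.

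MER58D was low in 33 °C replicate 2, at 3.75 CPM, with the next library of its group at 6.59 CPM. Rag1 was high in 33 °C replicate 5, at 10.2 CPM, where the other 4 libraries at 33 °C had at most 0.875 CPM.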

How the results depend on the processing

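Under every alternative run, 0 DNA subfamilies passed an adjusted p of 0.05, and 0 transposase-derived genes and 0 piRNA or repressor genes did in those that include genes, which the fits on TE rows do not. The limits are 5 mice a group, 1 library that holds the sign of most estimates, and unknown sharing of reads between copies. The replicate numbers were not taken to pair the mice, since same-numbered libraries deviated apart (r from -0.557 to -0.104, with 0 of 5 libraries at 42 °C closest to its own number).

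At an unadjusted p under 0.05 the counts, 6 higher and 0 lower in the report, with limma voom came to 2 above 0 and 5 below, and with the replicate block to 2 above and 0 below. They were 1 and 14 for limma voom without 42 °C replicate 2, 17 lower with scaling on TE rows, and 23 lower with that scaling without 42 °C replicate 2. Leaving out 1 library gave 3 to 9 higher and 0 to 1 lower. For the replicate block and these fits, apart from that without 42 °C replicate 2, the shares of all features are not given here. Their counts are therefore not read as a result about the subfamilies. The median of DNA subfamilies was -0.22 with limma voom without 42 °C replicate 2 and -0.14 with limma voom on all libraries, -0.02 with scaling on TE rows and -0.06 to 0.38 over the fits without 1 library, of which the fit without 42 °C replicate 2 was the one below 0. Scaling on TE rows by itself centres these rows near 0, with a median of -0.01 over all tested TE rows. The 2 fits that join 2 changes were chosen after the data were seen. The share of counts on DNA transposons at 42 °C minus that at 33 °C was 0.0599 percentage points, 0.0770 with counts on genes as the denominator, and kept its sign without each library in turn except 42 °C replicate 2.

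The sign of log2 fold changes that did not pass the test turned in several fits, and the cause was not tested. With scaling on TE rows they were -0.026 for MER5A, -0.021 for MER105, -0.093 for MER53, -0.075 for MER63D, -0.087 for FordPrefect, -0.17 for MER121, -0.12 for MMAR1 and -0.012 for RMER30. In the same fit they were -0.0052 for MER20, -0.0080 for MER5B, -0.049 for MER3, -0.24 for Tigger1, -0.093 for Charlie1, -0.12 for Charlie5 and -0.13 for Tigger17c. With limma voom they were -0.10 for URR1B, -0.13 for URR1A, -0.14 for MER2, 0.030 for MER58C, -0.15 for MER5A, -0.14 for MER105, -0.22 for MER53, -0.15 for MER63D and -0.31 for MER121. In the same fit they were -0.24 for MMAR1, -0.043 for MADE2, -0.15 for RMER30, -0.12 for MER20, -0.093 for MER5B, -0.15 for MER3, -0.21 for Charlie1, -0.19 for Charlie5 and -0.23 for Tigger17c. With the replicate block Tigger1 had -0.032. With limma voom without 42 °C replicate 2 they were -0.18 for URR1B, -0.23 for URR1A, -0.22 for MER2, 0.083 for MER58C, -0.23 for MER5A, -0.21 for MER105, -0.30 for MER53, -0.22 for MER63D, -0.037 for MER63B, -0.017 for FordPrefect and -0.38 for MER121. In the same fit they were -0.055 for DNA1_Mam, -0.30 for MMAR1, -0.14 for MADE2, -0.24 for RMER30, -0.20 for MER20, -0.17 for MER5B, -0.22 for MER3, -0.29 for Charlie1, -0.25 for Charlie5 and -0.30 for Tigger17c. With scaling on TE rows without 42 °C replicate 2 they were -0.0019 for URR1B, -0.018 for URR1A, -0.010 for MER2, -0.025 for MER5A, -0.059 for MER105, -0.085 for MER53, -0.071 for MER63D, -0.016 for FordPrefect and -0.20 for MER121. In the same fit they were -0.14 for MMAR1, -0.036 for RMER30, -0.011 for MER20, -0.0027 for MER5B, -0.051 for MER3, -0.19 for Tigger1, -0.14 for Charlie1, -0.12 for Charlie5 and -0.12 for Tigger17c. Without 1 library the values ran from -0.16 to 0.26 for Tigger1, -0.028 to 0.40 for URR1B, -0.052 to 0.43 for URR1A, -0.027 to 0.42 for MER2, -0.041 to 0.36 for MER5A, -0.075 to 0.43 for MER105, -0.093 to 0.29 for MER53, -0.088 to 0.30 for MER63D, -0.21 to 0.25 for MER121 and -0.17 to 0.27 for MMAR1. They ran from -0.062 to 0.41 for RMER30, -0.025 to 0.39 for MER20, -0.024 to 0.37 for MER5B, -0.066 to 0.34 for MER3, -0.17 to 0.33 for Charlie1, -0.13 to 0.26 for Charlie5, -0.13 to 0.24 for Tigger17c, -0.43 to 0.029 for ORSL-2a and -0.53 to 0.0052 for MER96. The end on the other side of 0 came without 42 °C replicate 2, except that it came for ORSL-2a without 42 °C replicate 3 or 33 °C replicate 4, for MER96 without 33 °C replicate 4, and for Tigger1 also without 42 °C replicate 1 or 3 or 33 °C replicate 1. MamRep1894 has no value with scaling on TE rows, with a filter at 1 CPM, or without 42 °C replicate 1 or 3.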
